A study of Mus musculus with 6 samples.

Results

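Metallothioneins and the antioxidant genes controlled by the transcription factor NRF2 were examined in brown adipose tissue with and without a truncated form of adenylyl cyclase 3. The set held 10 genes, taken by symbol: the metallothioneins Mt1 and Mt2, the NRF2 gene itself (Nfe2l2), and Hmox1, Nqo1, Gclc, Gclm, Txnrd1, Srxn1 and Gsr. All 10 were found among the 54385 rows of the deposited table, and all 10 passed the filter on low counts that left 14332 genes to be tested. Polyadenylated RNA was sequenced from C57BL/6N mice aged 20 weeks on chow, with 3 wild-type libraries (WT, genotype wt/wt) and 3 from ADCY3∆AT mice, in which Adcy3-AT, as the labels name it, is knocked out. The title of the series links a truncated adenylyl cyclase 3 to cold and to brown fat function, and the comparison asks how gene expression differs without it in mice on chow. The labels do not say how the allele was made. The labels of the samples place the tissue between the shoulder blades (interscapular), while the design text names it inguinal. They do not say whether the 3 libraries of a genotype came from separate mice, so p-values measure the spread between these libraries, which may be technical.

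Metallothioneins are small proteins rich in cysteine that bind zinc and copper, and their genes are known to respond to zinc, through the factor MTF1, and to glucocorticoids and oxidants. NRF2 is held at low level by KEAP1, which directs its breakdown. Oxidants and electrophiles release NRF2, which then pairs with small Maf proteins at antioxidant response elements and raises genes of glutathione synthesis, thioredoxin recycling, quinone reduction and heme breakdown. Brown fat burns fuel in abundant mitochondria and is rich in heme proteins, so redox and metal handling genes are part of its usual programme.

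The promoters of Mt1, Mt2 and Srxn1 are shown from RefSeq on GRCm38.p6. Mt1 and Mt2 are the metallothioneins of the set, and Srxn1 is the gene whose difference was largest relative to its error. The Mt2 stretch ends at the base before the RefSeq transcription start. Those of Mt1 and Srxn1 end at the base before the GENCODE gene start, which lies a few bases upstream of the RefSeq start. RefSeq windows matched 7 of the 10 genes by symbol. The stretches lie on the + strand at chr8:94178839-94179081 for Mt1, chr8:94172368-94172617 for Mt2 and chr2:152105274-152105515 for Srxn1, written 5′ to 3′. Capitals mark matches, on either strand, to a metal response element (TGCACNC or TGCGCNC), to a CNC and small Maf element (TGANTCAGC) and to a glucocorticoid response element (GNACA and TGTNC with 3 bases between).
Mt1: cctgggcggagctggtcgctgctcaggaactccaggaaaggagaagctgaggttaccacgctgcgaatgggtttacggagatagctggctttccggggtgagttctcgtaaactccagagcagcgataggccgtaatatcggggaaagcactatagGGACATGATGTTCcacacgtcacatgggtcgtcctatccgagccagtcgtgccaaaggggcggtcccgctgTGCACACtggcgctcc
Mt2: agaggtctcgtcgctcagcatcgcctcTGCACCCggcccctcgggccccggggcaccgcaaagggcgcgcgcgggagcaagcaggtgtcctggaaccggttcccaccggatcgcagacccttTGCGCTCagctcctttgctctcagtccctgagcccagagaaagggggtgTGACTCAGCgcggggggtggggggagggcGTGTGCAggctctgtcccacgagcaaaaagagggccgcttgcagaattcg
Srxn1: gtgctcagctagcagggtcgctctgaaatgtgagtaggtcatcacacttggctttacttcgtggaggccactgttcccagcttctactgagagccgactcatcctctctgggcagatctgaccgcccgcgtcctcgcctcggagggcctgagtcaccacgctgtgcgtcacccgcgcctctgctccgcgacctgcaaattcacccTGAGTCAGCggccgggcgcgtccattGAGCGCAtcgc

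Positions are counted back from the RefSeq start, which for Mt1 and Srxn1 lies a few bases past the printed end. Mt1 had 1 metal match, TGCACAC from -23 to -17, and the glucocorticoid match GGACATGATGTTC from -94 to -82. Mt2 had 3 metal matches, TGCACCC from -223 to -217, TGCGCTC from -128 to -122 and GTGTGCA, which is on the other strand, from -50 to -44. It also had the CNC and small Maf match TGACTCAGC from -79 to -71, and no glucocorticoid match. Srxn1 had the CNC and small Maf match TGAGTCAGC from -45 to -37 and 1 metal match, GAGCGCA on the other strand, from -19 to -13. Among 32851 RefSeq promoter windows of up to 250 bases before the start, the metal element was found in 21.4% and at 3 or more places in 1.26%. The CNC and small Maf element was found in 1.0% and the glucocorticoid element in 0.4%. A looser antioxidant response element (TGACNNNGC, found in 10.2%) overlapped the CNC match of Mt2 and was also matched in windows of Gclm, Txnrd1 and Nfe2l2. The windows of Mt1, Nqo1 and Srxn1 had no match to it. An AP-1 element (TGANTCA, found in 6.7%) was also searched but not marked. Srxn1 had it from -102 to -96 and from -45 to -39, and Mt2 from -79 to -73. The CNC match of each of these genes contains 1 such AP-1 match. Other annotated transcripts start downstream on chr8, at 94179211 and 94179241 for Mt1 and at 94172860 for Mt2. The bases directly before those starts were not searched, so any matches there were not counted. These matches describe letters in short windows and do not show binding.

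The libraries held 13758492 to 19592156 estimated counts, and the limit that a count of 0 allows (3 counts) was 0.152 to 0.222 CPM, the count scaled to library size. The row with identifier ENSMUSG66666620654, which ends in the digits of the Adcy3 identifier and is otherwise not named in the table, held 118 to 215 CPM in WT and 0 to 1.27 CPM in ADCY3∆AT. Brown adipocyte markers were abundant in every library. Over 10 genes they summed to 16850, 16843 and 17217 CPM in WT and 15268, 15801 and 15056 CPM in ADCY3∆AT. All ADCY3∆AT sums lay below all WT sums. EdgeR called 0 of these 10 genes, the median log2 fold change was -0.10, and 2 were above 0. DESeq2 called 1 of them, higher, as did edgeR without ADCY3∆AT replicate 1. The marker Ppargc1a went against the sums, with edgeR log2 fold changes from 0.80 to 1.23 when each library was left out in turn. Skeletal muscle markers (15 genes, of which 12 were tested) summed to 26.4, 126 and 754 CPM in WT and 3.36, 2.39 and 1.57 CPM in ADCY3∆AT. EdgeR called 8 lower, DESeq2 called 12, and limma-voom and robust quasi-likelihood each called 0. With edgeR the count was 11 with the replicate number as a block or without WT replicate 1. It was 6 without WT replicate 3, 1 without WT replicate 2 and 0 when any 1 ADCY3∆AT library was left out. In bulk tissue, fewer cells of a type and less RNA per cell cannot be told apart.

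None of the 10 genes differed between the genotypes at an adjusted p under 0.05 in edgeR's quasi-likelihood test, beside 4.30% of the 14332 genes tested (2.63% higher and 1.67% lower). Limma-voom also called 0 of them and DESeq2 called 1, Srxn1. At an unadjusted p under 0.05 there were 3 of the 10 (Nqo1, Srxn1 and Gsr), beside 22.6% of all genes tested. The log2 fold change (ADCY3∆AT minus WT) was above 0 for Mt1, Mt2 and Txnrd1 and below 0 for the other 7, with a median of -0.13 beside -0.01 over all genes tested. For 4 of the 10, Nqo1, Srxn1, Gsr and Nfe2l2, all 3 ADCY3∆AT libraries lay below all 3 WT libraries, beside 29.0% of tested genes whose genotypes did not overlap in either direction. The plots of levels by library and of the genotype differences show these values gene by gene.

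**Figure D1:**
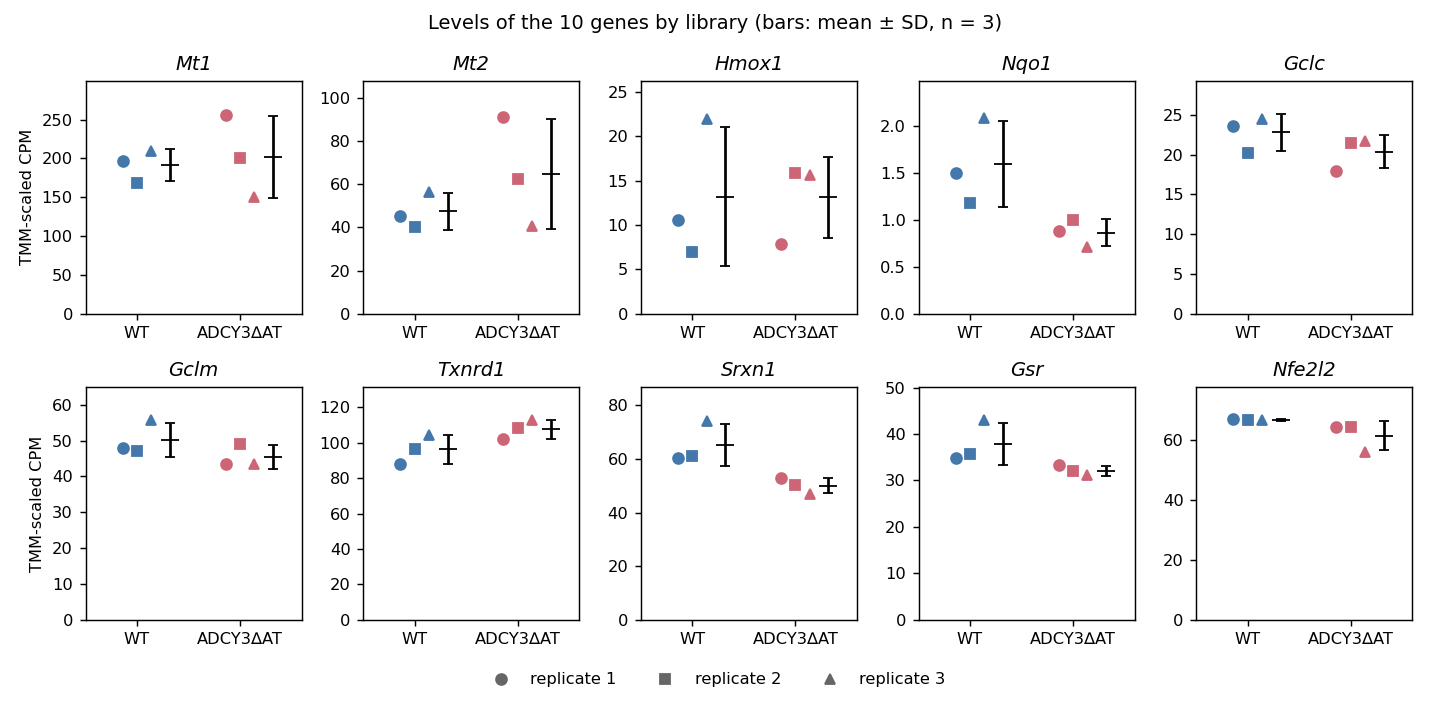
Level of each gene in TMM-scaled CPM (vertical axes, each from 0) in the 3 WT (blue) and 3 ADCY3∆AT (red) libraries, with the marker shape giving the replicate and black bars the mean ± SD. The ADCY3∆AT points lie below all WT points for Nqo1, Srxn1, Gsr and Nfe2l2 and overlap them for the other 6 genes.

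**Figure D2:**
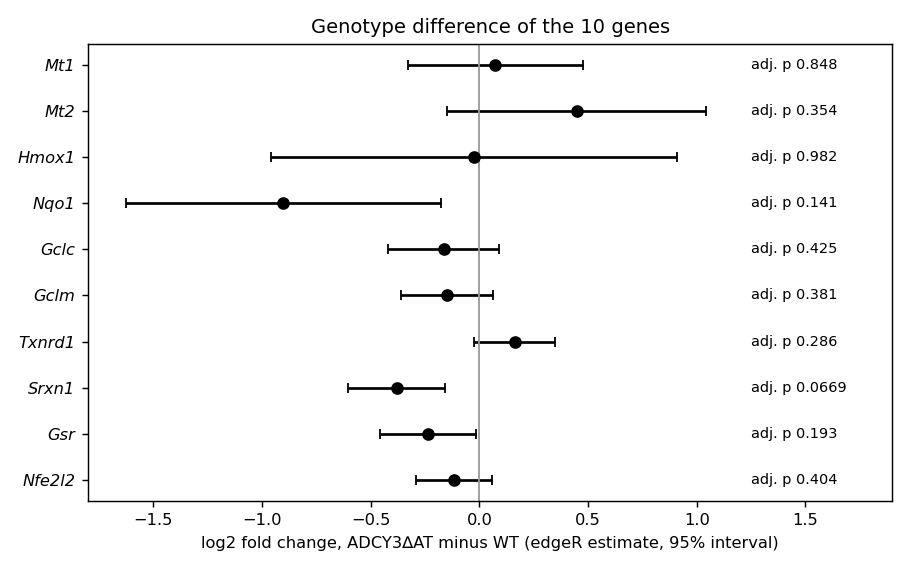
Log2 fold change of each gene, ADCY3∆AT minus WT (horizontal axis), as the edgeR estimate with its 95% interval and adjusted p. The intervals of Nqo1, Srxn1 and Gsr lie below 0, those of the other 7 include 0, and no adjusted p is under 0.05.

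Mt1 and Mt2, the widely expressed metallothioneins, did not differ between genotypes beyond the spread of the libraries, and both had a larger SD in ADCY3∆AT than in WT. Mt1 (ENSMUSG00000031765, chr8:94179082-94180327, + strand) was at 197, 169 and 210 CPM in WT and at 255, 201 and 150 CPM in ADCY3∆AT. The ADCY3∆AT libraries held both the highest and the lowest of the 6 values. The means were 191.8 ± 20.8 and 202.0 ± 52.8 CPM (SD, n = 3 here and below). This gave a log2 fold change of 0.07 (95% interval -0.33 to 0.48, edgeR adjusted p = 0.848). The sign depended on single libraries, at -0.12 without ADCY3∆AT replicate 1 and -0.01 without WT replicate 2.

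Mt2 (ENSMUSG00000031762, chr8:94172664-94173568, + strand, which ends 5513 bases before Mt1 begins) was at 45.3, 40.2 and 56.6 CPM in WT and at 91.1, 62.3 and 40.7 CPM in ADCY3∆AT. ADCY3∆AT replicates 1 and 2 exceeded every WT library, and replicate 3 lay among them. From means of 47.4 ± 8.38 and 64.7 ± 25.3 CPM, the estimated log2 fold change was 0.45 with an SE of 0.26 (95% interval -0.15 to 1.04, edgeR adjusted p = 0.354). It became 0.12 without ADCY3∆AT replicate 1 and 0.70 without replicate 3. With no filter on low counts, where 1951 of 34083 genes were called, edgeR gave 0.47 with an adjusted p of 9.985e-05. Leaving out each library in turn gave adjusted p from 0.114 to 0.777 with edgeR.

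The paired genes followed each other across libraries (Pearson r of log2 levels 0.91 over 6 libraries, as a description), yet not in equal measure. The ratio of Mt1 to Mt2 CPM was 4.35, 4.20 and 3.70 in WT and 2.80, 3.23 and 3.68 in ADCY3∆AT. The groups did not overlap, but the lowest WT and the highest ADCY3∆AT ratio nearly touched. The mean ratio was 4.08 ± 0.339 against 3.24 ± 0.440, with an exact two-sided permutation p of 0.1, the smallest that 3 against 3 libraries allow. The ratio was chosen after its values had been seen. The summed level of both genes was 239 ± 28.6 CPM in WT and 267 ± 78.0 CPM in ADCY3∆AT (exact two-sided permutation p = 0.8). How the authors' counting divided reads that match both genes is not known here.

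**Figure D3:**
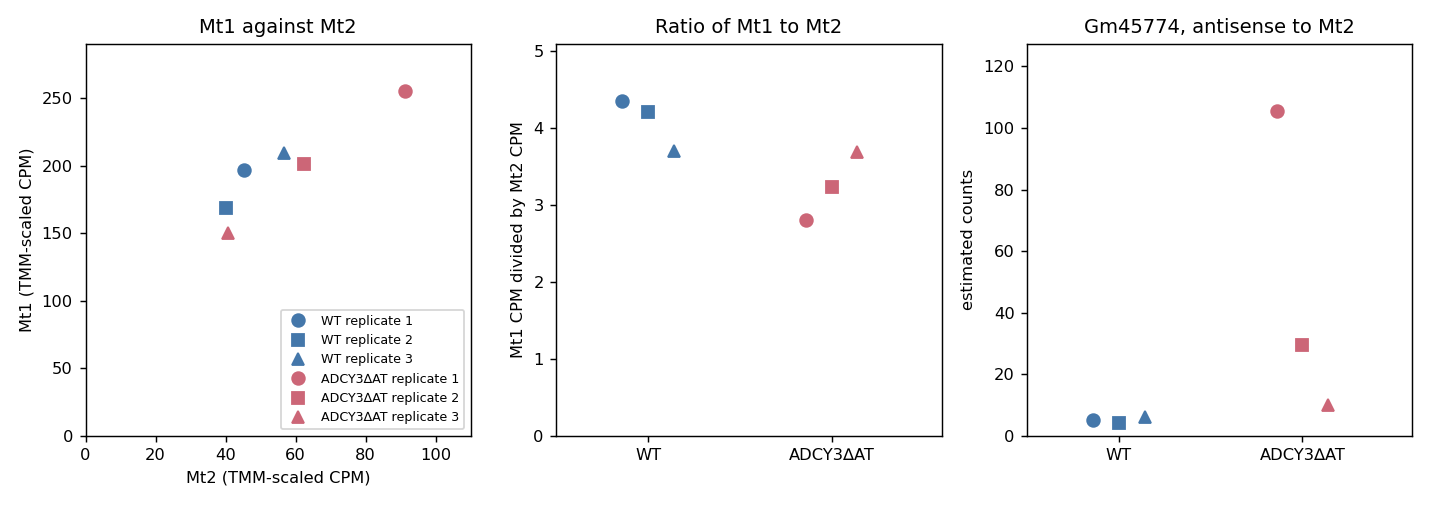
Left, Mt1 against Mt2 in TMM-scaled CPM, 1 point per library. Middle, the ratio of Mt1 to Mt2 CPM, at 3.70 to 4.35 in WT and 2.80 to 3.68 in ADCY3∆AT. Right, estimated counts of Gm45774, the gene annotated antisense to Mt2, from 4.005 to 6.049 in WT and from 10.071 to 105.616 in ADCY3∆AT.

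Gm45774 (ENSMUSG00000110588), annotated as an antisense gene, shares 432 exon bases with Mt2 on the opposite strand. It had 5.009, 4.005 and 6.049 estimated counts in WT and 105.616, 29.520 and 10.071 in ADCY3∆AT. All ADCY3∆AT libraries exceeded all WT libraries, and their order was that of Mt2 within ADCY3∆AT. The row did not pass the filter and so was outside the main test. With no filter on low counts, an alternative chosen for this row after its values had been seen, edgeR gave a log2 fold change of 3.10 (SE 0.41, adjusted p = 7.0e-12), the same fit that called Mt2. That fit moved the edgeR adjusted p of other genes far as well, from 0.0055 to 1.199e-27 for Tfrc and from 0.141 to 0.231 for Nqo1. Its p-values therefore cannot be set beside those of the main test. Neither the labels nor the table say if counting was by strand, and reads of Gm45774 and Mt2 then cannot be told apart. With both rows added together, an alternative chosen after the values had been seen, the level was 47.7 ± 8.40 CPM in WT and 67.5 ± 28.0 CPM in ADCY3∆AT (log2 fold change 0.50, edgeR adjusted p = 0.325).

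Of 15 tested genes known to respond to glucocorticoids, a class of metallothionein inducer, 7 rose and 1 fell in ADCY3∆AT, with a median log2 fold change of 1.14. The count of 8 was 3 without WT replicate 1 or WT replicate 3 and 5 without ADCY3∆AT replicate 2. With robust quasi-likelihood it was 4, with 2 higher and 2 lower. Tsc22d3, the glucocorticoid-induced leucine zipper, was at 111, 90.3 and 115 CPM in WT and at 315, 234 and 196 CPM in ADCY3∆AT (log2 fold change 1.24, edgeR adjusted p = 0.00933). Its order within ADCY3∆AT was that of Mt1 and Mt2, but replicate 3 was above every WT library for Tsc22d3 and below every WT library for Mt1. Dusp1, a phosphatase that dampens MAP kinases, fell from 85.8 ± 8.78 to 30.8 ± 7.13 CPM (log2 fold change -1.48, edgeR adjusted p = 0.00453). The part of this group in the metallothionein values was not tested.

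Zinc and copper handling was covered by 22 tested genes, with 0 calls from edgeR, 0 from limma-voom and 1 from DESeq2. By edgeR, 4 of the 22 had an unadjusted p under 0.05, beside 22.6% of all genes tested. Their median log2 fold change was -0.03. Atox1, the copper chaperone for the secretory pathway, was at 80.9 ± 3.21 CPM in WT and 69.0 ± 3.74 CPM in ADCY3∆AT (edgeR adjusted p = 0.107). Slc39a14, a zinc importer, was at 17.5, 20.0 and 19.9 CPM in WT and at 50.4, 22.4 and 28.7 CPM in ADCY3∆AT. Its ADCY3∆AT libraries all lay above WT, with the highest again replicate 1 (log2 fold change 0.83, edgeR adjusted p = 0.116). Mt3 and Mt4, further metallothionein genes, did not pass the filter.

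Hmox1 (ENSMUSG00000005413, chr8:75093621-75100589, + strand) encodes heme oxygenase, which opens heme to biliverdin, iron and carbon monoxide. It was at 10.6, 6.95 and 21.98 CPM in WT and at 7.87, 15.9 and 15.6 CPM in ADCY3∆AT. The genotypes overlapped, with the highest and the lowest library both in WT. The means were 13.2 ± 7.85 and 13.1 ± 4.55 CPM, and the log2 fold change was -0.02 (95% interval -0.96 to 0.91, edgeR adjusted p = 0.982). This interval spans nearly a doubling and a halving, so changes of that size were not resolved. The sign turned without WT replicate 3 (0.57) and without ADCY3∆AT replicate 1 (0.25).

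Macrophages, which clear red cells and are rich in heme oxygenase, were followed by 13 markers that summed to 75.3, 84.0 and 133 CPM in WT and 71.6, 111 and 127 CPM in ADCY3∆AT. Every library above 100 CPM in markers was above 15 CPM in Hmox1, and the other 3 were below 11 CPM. None of the 11 macrophage markers tested was called by edgeR, 0 had an unadjusted p under 0.05, and Clec4f and Marco did not pass the filter. Erythroid markers (7 genes) summed to 805 to 1722 CPM in WT and 729 to 1380 CPM in ADCY3∆AT, highest in WT replicate 3 as well. The part of either cell type in the Hmox1 values was not tested.

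**Figure D4:**
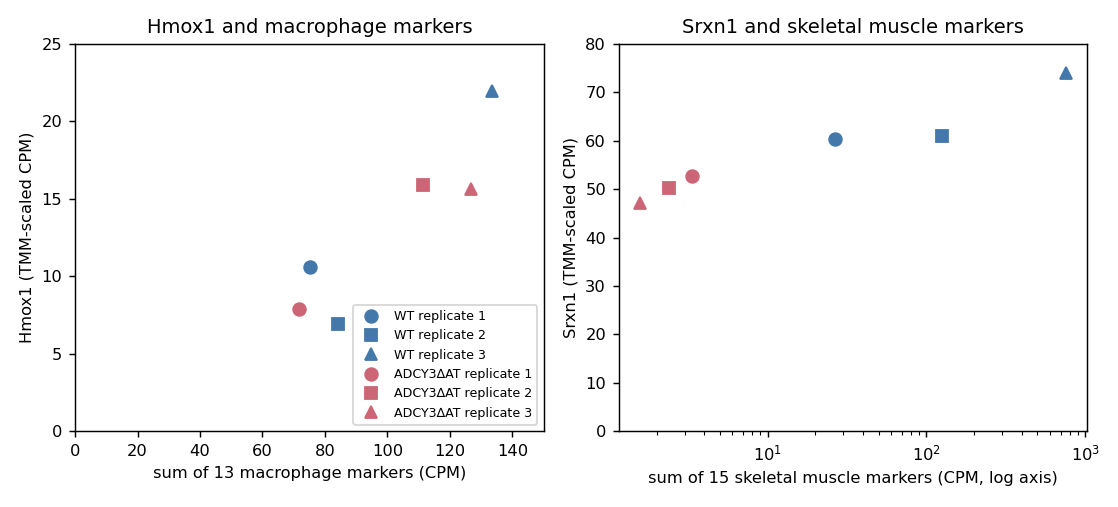
Left, Hmox1 against the sum of 13 macrophage markers, and right, Srxn1 against the sum of 15 skeletal muscle markers (logarithmic axis), all in TMM-scaled CPM with 1 point per library. Libraries high in macrophage markers are those high in Hmox1, and every WT library exceeds every ADCY3∆AT library in both Srxn1 and muscle markers.

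Among 24 tested genes of heme and iron handling 1 was called, beside 4.30% of all genes tested. An unadjusted p under 0.05 by edgeR was found for 3 of the 24, beside 22.6%. Tfrc, the transferrin receptor that brings iron into cells, fell. It was at 34.3, 37.5 and 24.4 CPM in WT and at 11.2, 13.2 and 12.4 CPM in ADCY3∆AT, with no overlap (log2 fold change -1.38, edgeR adjusted p = 0.00547). The call held without each library in turn. The ferritin chains Fth1 and Ftl1, which store iron and were looked up outside the rule for named genes, were at 1516 and 827 CPM in WT and 1637 and 791 CPM in ADCY3∆AT, and neither was called (edgeR adjusted p = 0.368 and 0.836).

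Nqo1 (ENSMUSG00000003849, chr8:107388225-107403206, - strand) encodes a quinone reductase that is a standard readout of NRF2. It was scarce, at 1.502, 1.18 and 2.09 CPM in WT and 0.88, 1.00 and 0.71 CPM in ADCY3∆AT, from 14 to 37 estimated counts per library. All ADCY3∆AT values lay below all WT values. The log2 fold change was the largest in size of the 10 genes, at -0.90 (SE 0.32, 95% interval -1.63 to -0.18), and did not pass the test (edgeR adjusted p = 0.141). The exact two-sided permutation p was 0.1, the smallest possible here. It was -0.65 without WT replicate 3, which held the highest level.

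Gclc and Gclm encode the catalytic and the modifier subunit of the enzyme that carries out the first step of glutathione synthesis. Gclc (ENSMUSG00000032350, chr9:77754535-77794485, + strand) was at 23.6, 20.2 and 24.5 CPM in WT and at 17.9, 21.5 and 21.7 CPM in ADCY3∆AT. Gclm (ENSMUSG00000028124, chr3:122245557-122270732, + strand) was at 47.9, 47.0 and 55.8 CPM in WT and at 43.4, 49.2 and 43.5 CPM in ADCY3∆AT. The genotypes overlapped for both subunits. Log2 fold changes were -0.16 for Gclc (95% interval -0.42 to 0.09, edgeR adjusted p = 0.425) and -0.15 for Gclm (95% interval -0.36 to 0.06, edgeR adjusted p = 0.381). Gclm shares 296 exon bases with Gm17494 on the opposite strand, which held 10.9 to 29.0 estimated counts beside 636 to 989 for Gclm. It also shares 244 with the pseudogene Gm6061, which held 0 in every library.

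Srxn1 (ENSMUSG00000032802, chr2:152105516-152111376, + strand) encodes sulfiredoxin, which restores peroxiredoxins that peroxide has overoxidised. Its levels were 60.4, 60.9 and 74.1 CPM in WT and 52.8, 50.3 and 47.1 CPM in ADCY3∆AT. Every ADCY3∆AT library lay below every WT library, by at least the step from 60.4 to 52.8 CPM. The mean was 1.30-fold lower in ADCY3∆AT (65.1 ± 7.75 against 50.05 ± 2.86 CPM; log2 fold change -0.38, SE 0.10, 95% interval -0.60 to -0.16). With an unadjusted p of 0.00403 and an adjusted p of 0.0669 by edgeR it missed the threshold, while DESeq2 called it (adjusted p = 0.0256). The exact two-sided permutation p was 0.1, the smallest possible here. Leaving out each library in turn gave log2 fold changes from -0.43 to -0.28 and edgeR adjusted p from 0.0940 to 0.169.

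Gsr (ENSMUSG00000031584, chr8:33652523-33698163, + strand) encodes glutathione reductase, which returns oxidised glutathione to its reduced form. It was at 34.7, 35.8 and 43.0 CPM in WT and at 33.2, 32.0 and 31.1 CPM in ADCY3∆AT, again without overlap. The gap between the genotypes was narrow, from 34.7 to 33.2 CPM. Its log2 fold change was -0.24 (95% interval -0.46 to -0.02, edgeR adjusted p = 0.193).

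WT replicate 3 was the highest of the 6 libraries for Hmox1, Nqo1, Gclc, Gclm, Srxn1 and Gsr and also for the skeletal muscle marker sum. Without it the log2 fold change was -0.28 for Srxn1 (edgeR adjusted p = 0.124) and -0.13 for Gsr (0.367). WT replicates 1 and 2 held 60.4 and 60.9 CPM of Srxn1 with 26.4 and 126 CPM of muscle markers. The part of muscle RNA in these values was not tested.

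Txnrd1 (ENSMUSG00000020250, chr10:82833951-82897712, + strand) encodes the cytosolic thioredoxin reductase, and among the 8 genes other than the metallothioneins it alone had a log2 fold change above 0. It was at 87.9, 96.2 and 105 CPM in WT and at 102, 108 and 113 CPM in ADCY3∆AT. The highest WT library overlapped the lowest ADCY3∆AT library. Its log2 fold change was 0.16 (95% interval -0.03 to 0.35, edgeR adjusted p = 0.286).

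Nfe2l2 (ENSMUSG00000015839, chr2:75675513-75704641, - strand) was almost constant in WT, at 66.9, 66.4 and 66.5 CPM. In ADCY3∆AT it was at 64.4, 64.1 and 55.8 CPM, all below WT, with replicate 3 apart from the other two. The log2 fold change was -0.12 (95% interval -0.29 to 0.06, edgeR adjusted p = 0.404), and -0.05 without ADCY3∆AT replicate 3. NRF2 is governed largely through its protein, which these libraries do not measure.

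Among the regulators and partners of NRF2, 1 of 17 tested genes rose and 0 fell, beside 4.30% of all genes tested that were called. Their median log2 fold change was 0.10. An unadjusted p under 0.05 by edgeR was found for 8 of the 17, beside 22.6% of all genes tested. Genotypes did not overlap for 8 of the 17, beside 29.0%. The riser was Nfe2l1, the related factor that maintains proteasome genes. It was at 491, 488 and 458 CPM in WT and at 603, 573 and 571 CPM in ADCY3∆AT (log2 fold change 0.28, edgeR adjusted p = 0.0469). The groups did not overlap, but the call ended when any 1 library was left out (edgeR adjusted p from 0.0893 to 0.1496) and with upper-quartile scaling (0.0621). Bach1, the repressor that competes for antioxidant response elements, was at 15.3, 17.0 and 13.8 CPM in WT and at 27.0, 21.3 and 19.6 CPM in ADCY3∆AT. It did not overlap either, and missed the threshold (log2 fold change 0.56, edgeR adjusted p = 0.0615). Bach1, Keap1 and Maff were looked up for their roles and not by the rule for named genes. Keap1 was at 77.3 ± 1.16 CPM in WT and 67.1 ± 4.50 CPM in ADCY3∆AT (log2 fold change -0.20, edgeR adjusted p = 0.142). Maff, a small Maf partner, was at 4.77 to 5.58 CPM in WT and at 31.5, 10.3 and 5.31 CPM in ADCY3∆AT, highest in replicate 1 as were Mt1 and Mt2 (edgeR adjusted p = 0.143).

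Levels were compared between genes as CPM per kilobase of merged exons. In WT the order was Mt1 (153.9 ± 16.7), Mt2 (80.6 ± 14.3), Srxn1 (23.1 ± 2.75), Nfe2l2 (17.5 ± 0.063), Gsr (13.7 ± 1.62), Txnrd1 (13.6 ± 1.18), Gclm (7.98 ± 0.764), Hmox1 (7.52 ± 4.48), Gclc (6.05 ± 0.610) and Nqo1 (1.02 ± 0.295). Gsr and Txnrd1, Gclm and Hmox1, and Hmox1 and Gclc overlapped as neighbours in this order. In ADCY3∆AT the means of Mt1 and Mt2 were 162 ± 42.3 and 110 ± 43.0 CPM per kilobase and their libraries overlapped, as did Srxn1 and Nfe2l2. Txnrd1 passed Gsr there, at 15.2 ± 0.754 against 11.7 ± 0.395 CPM per kilobase. Among tested genes with a known length, Mt1 stood at the 98.1 percentile, Mt2 at the 97.1 percentile and Nqo1 at the 23.7 percentile. The length used matters most for Mt1 and Txnrd1. By the length of the principal transcript, the WT level was 349 CPM per kilobase for Mt1, and Txnrd1 at 27.3 stood above Nfe2l2 at 26.9 and Srxn1 at 23.2.

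Profiles of the genes over the 6 libraries were compared in pairs, as a description since the points share libraries and genotype. Srxn1 and Gsr had a Pearson r of 0.97 between log2 levels, Nqo1 and Srxn1 of 0.96, Nqo1 and Gsr of 0.92 and Nqo1 and Gclm of 0.89. Mt1 and Mt2 reached 0.91 with each other, and neither exceeded 0.25 with Nqo1, Srxn1 or Gsr. No sharp split followed, since Mt1 had r of 0.565 with Nfe2l2, which itself reached 0.72 with Nqo1 and with Srxn1. Txnrd1 ran against Nfe2l2, with r of -0.70. Hmox1 was nearest to Gclc among these genes, with r of 0.72.

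Among 9247 other genes, those most like a member in profile over the 6 libraries were Asph for Mt1 (r = 0.990), Ly6a for Mt2 (0.994) and Pura for Hmox1 (0.986). For the genes lower in every ADCY3∆AT library they were Gpt, an alanine aminotransferase, for Nqo1 (0.997), Tmed2 for Srxn1 (0.997), Acat2 for Gsr (0.994) and Plpp1 for Nfe2l2 (0.996). Gclc was most like Anapc15 (0.993), Gclm like Nenf (0.991) and Txnrd1 like Rap2a (0.975). Blvrb, a biliverdin reductase listed among the other NRF2 targets, was at rank 3 for Gclm (0.978). Hsd11b1, listed among the genes known to respond to glucocorticoids, was at rank 2 for Nqo1 (0.991). No other gene among the 3 most like each member was on the gene lists examined here, so these matches do not point to NRF2 targets as a group. With 6 libraries and this many candidates, values this high are not rare.

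Beyond the 10 genes, 41 further NRF2 targets were tested, of which 0 rose and 2 fell, beside 4.30% of all genes tested that were called. Their median log2 fold change was -0.18, and 7 of 41 were above 0, beside 48.9% of all genes tested. Gstm2, a glutathione transferase, fell from 32.6, 28.1 and 37.7 CPM in WT to 21.9, 23.8 and 22.7 CPM in ADCY3∆AT (log2 fold change -0.53, edgeR adjusted p = 0.0413). Abcc1, which exports glutathione conjugates, fell from 29.9, 30.5 and 36.0 CPM to 21.5, 25.3 and 23.3 CPM (log2 fold change -0.46, edgeR adjusted p = 0.0450). Neither gene overlapped between the genotypes. The call on Gstm2 held when WT replicate 2 was left out and ended without each other library, and that on Abcc1 ended without any 1 library. Both ended with scaling by library size alone (edgeR adjusted p = 0.0527 and 0.0621). In 13 of the 41 genes the genotypes did not overlap, beside 29.0% of all genes tested. An unadjusted p under 0.05 by edgeR was found for 12 of the 41, beside 22.6%.

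Of 30 tested genes of glutathione synthesis and use, 1 rose and 1 fell, beside 4.30% of all genes tested that were called. The median log2 fold change was -0.28. An unadjusted p under 0.05 by edgeR was found for 11 of the 30, beside 22.6% of all genes tested. Genotypes did not overlap for 12 of the 30, beside 29.0%. Gpx3, the secreted glutathione peroxidase, rose from 1028, 915 and 1195 CPM to 1399, 1717 and 1622 CPM (log2 fold change 0.59, edgeR adjusted p = 0.0301). Gstt3, a transferase of the theta class, fell from 7.57, 5.62 and 7.10 CPM to 3.52, 4.25 and 3.39 CPM (log2 fold change -0.87, edgeR adjusted p = 0.0376). The call on Gpx3 held without WT replicate 3 or ADCY3∆AT replicate 1 and ended without each other library. That on Gstt3 held without WT replicate 2 and ended without each other library.

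Among 21 tested thioredoxins, peroxiredoxins, superoxide dismutases and related genes, edgeR and limma-voom each called 0 and DESeq2 called 1. By edgeR, 5 of them had an unadjusted p under 0.05, beside 22.6% of all genes tested. Prdx5, a peroxiredoxin of mitochondria and peroxisomes, was at 353 ± 12.6 CPM in WT and 299 ± 7.33 CPM in ADCY3∆AT (edgeR adjusted p = 0.0658). Ccs, the copper chaperone of superoxide dismutase, was at 71.0 ± 3.87 and 59.3 ± 1.55 CPM (edgeR adjusted p = 0.0749). Both were lower in all 3 ADCY3∆AT libraries.

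Other stress programmes were counted for comparison. For ATF4, the factor of the amino acid and integrated stress response, 18 targets were tested, and edgeR, limma-voom and DESeq2 each called 0. By edgeR, 2 of the 18 had an unadjusted p under 0.05, beside 22.6% of all genes tested. Heat shock proteins, in contrast, were higher, with 17 of 23 tested genes called up, 0 called down and a median log2 fold change of 1.34. Hsph1, a chaperone of the HSP110 class, rose from 19.4 ± 3.22 to 300 ± 139 CPM (log2 fold change 3.94, edgeR adjusted p = 0.00236). The count of 17 was 8 without WT replicate 1, 9 without WT replicate 2 or ADCY3∆AT replicate 2, and 11 without WT replicate 3. The plot by gene list sets the 10 genes, with log2 fold changes from -0.90 to 0.45, beside these groups.

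**Figure D5:**
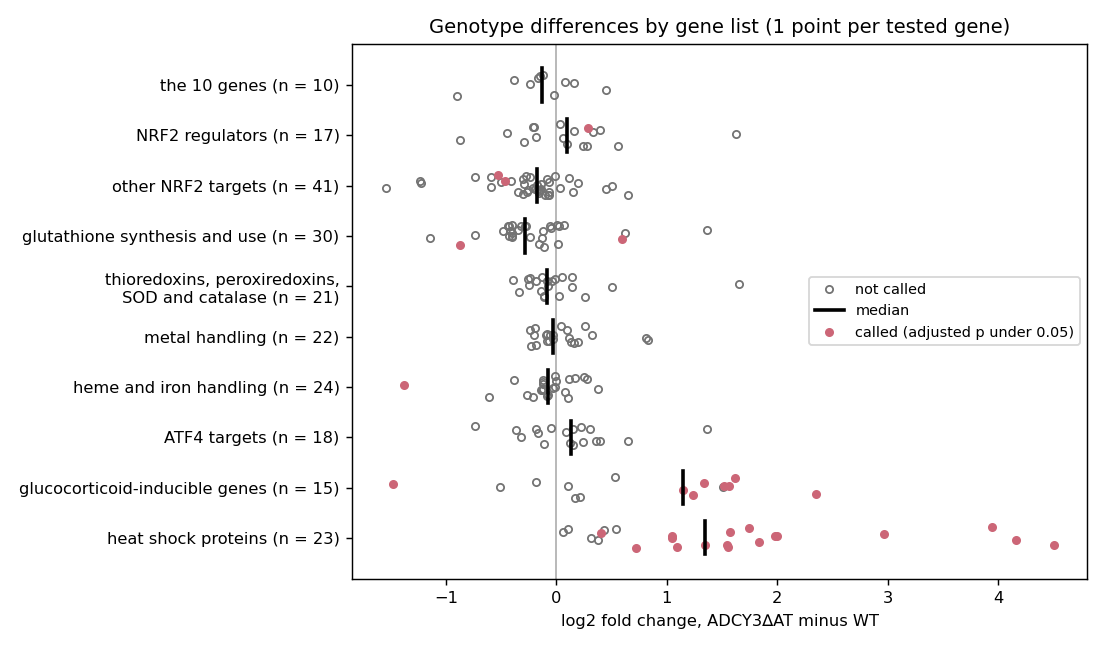
Log2 fold change, ADCY3∆AT minus WT (horizontal axis), of every tested gene in each list, with called genes in red and the median as a black bar. The median of the 10 genes is -0.13 with none called, while the glucocorticoid-inducible genes and heat shock proteins have medians of 1.14 and 1.34 with 7 and 17 genes called higher.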

How the data were processed

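The authors deposited a single table with estimated counts for each gene in 6 libraries. The submitters' processing notes name GRCm38, StringTie, Salmon and edgeR, without versions or roles, and per the labels' protocols libraries were made from polyadenylated RNA with a NEBNext Ultra II kit. GENCODE M21 gave symbols for 54131 of 54385 rows. After rounding to whole numbers, genes were filtered with filterByExpr (minimum count 10, minimum total 15), and TMM factors scaled the libraries. The genotypes entered a two-sided quasi-likelihood test (edgeR 4.0.16, R 4.3.3) with no covariate; calls needed a Benjamini-Hochberg adjusted p under 0.05 over all genes tested. The scripts were tested on simulated data. Single values had an exact permutation test of log2(CPM + 0.5) over 20 divisions of the libraries. Promoters came from RefSeq (GRCm38.p6). Libraries of a genotype differed beyond sampling noise, with a chi-square per gene of 6.34 to 26.6.

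The members and gene lists were chosen with earlier results of these data known. Named genes were the 10 members, up to 5 called genes per list (or the 2 with the smallest p), the most abundant gene of each cell type list, and the 3 genes most like each member (mean CPM of at least 5). Not all of these are described. No stated rule chose among them, as with Tsc22d3 and Dusp1 of the glucocorticoid list and Hsph1 of the heat shock proteins. Alternatives were other scalings, DESeq2 1.42.0, limma-voom 3.58.1, robust fitting, other filters, a replicate block, a threshold of 0.10 and leaving out each library.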

Additional observations from a re-analysis of the deposited data

How the results depend on the processing

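The number of all tested genes called was 616 (377 higher and 239 lower). It was 993 with DESeq2, 1951 of 34083 with no filter on low counts, 1375 at a threshold of 0.10, and 162 to 461 without 1 library. Upper-quartile scaling gave 282 higher and 274 lower, so that 50.7% of its calls were higher. The number of members called was 0, with 1 under DESeq2, 2 with no filter (Mt2 higher, Srxn1 lower) and 1 at a threshold of 0.10 (Srxn1), and it was 0 in the 6 fits that left out 1 library. The log2 fold change of Mt1 was 0.07 and ranged from -0.1219 to 0.2518 without 1 library, below 0 without WT replicate 2 (-0.0075) or ADCY3∆AT replicate 1. That of Hmox1 was -0.02 and turned positive with limma-voom (0.0198), no filter (0.0031) and the replicate block (0.0402), and it ranged from -0.3172 to 0.5737 without 1 library, above 0 without WT replicate 3 or ADCY3∆AT replicate 1 (0.2452). The other 8 members kept their sign in every alternative. Cell type markers with small differences also changed sign without 1 library, over ranges of -0.1988 to 0.3803 for Lyz2, -0.4172 to 0.1052 for Hbb-bs, -0.1530 to 0.9818 for Cxcr2, -0.2447 to 0.0279 for Dcn and -0.4612 to 0.0211 for Col3a1. The causes were not tested.

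With the replicate number as a block, 324 genes and 0 members were called. The calls on Nfe2l1, Gstm2, Abcc1, Gpx3 and Gstt3 were not made with the replicate block (edgeR adjusted p = 0.0874, 0.0795, 0.0773, 0.0560 and 0.0898), which left 0 calls among the NRF2 regulators, the other NRF2 targets and the glutathione genes. The numbers did not pair the libraries: deviations of same-numbered libraries correlated at 0.0039, 0.0726 and -0.0486, and not every library correlated best with its own number. Depth limits Nqo1 most, with 14 to 37 estimated counts per library.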
